A study of Mus musculus with 6 samples.

Results

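The genes described here carry cytokine signals from the cell surface to the nucleus. They are the Janus kinases Jak1, Jak2 and Jak3, the transcription factors Stat3, Stat5a, Stat5b and Stat6, and the feedback inhibitors Cish, Socs2 and Socs3. They were chosen by name and role, with no threshold on their values, and all 10 were found among the 17438 genes of the deposited table. The cells were group 2 innate lymphoid cells (ILC2s), tissue lymphocytes that release IL-5 and IL-13, sorted from mouse lung, given the alarm cytokine IL-33 and cultured. One genotype was the Cd48 knockout (allele B6.129S4-Cd48tm1Rsr/EpaulJ; libraries KO1, KO2 and KO3), which lacks a surface protein of the SLAM family, and the other was wild type (WT1, WT2 and WT3). Both carry the strain label CB57BL/6, and the allele's name gives a donor strain other than B6. No source used here gives the age or sex of the mice, the time in culture, or whether each sample was a different animal, so p-values cover only the variation among these 6 samples, part of which may be technical.

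Cytokine receptors of the IL-2, IL-4 and IL-6 types have no kinase of their own. Ligand binding brings together JAKs held on the receptor tails, these phosphorylate the receptor and then a STAT protein, and the STAT pairs up, enters the nucleus and switches on target genes. Among the targets are the SOCS genes, whose products bind the receptor or the JAK and turn the signal down, which makes their transcripts a common readout of recent STAT activity. In ILC2s, IL-2, IL-7 and TSLP act through STAT5, and IL-4 and IL-13 act through STAT6, while IL-33 itself signals through MyD88 and not through a JAK. Transcript levels do not show phosphorylation, which is the step that activates these proteins.

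A pair of sequences bears on how these genes can be read. Stat5a and Stat5b are neighbours on chromosome 11 that arose by duplication, and their coding sequences share an identical run of 324 bases spread over 3 exons. The middle exon of that run, 152 bases, is shown because a read from it cannot tell the genes apart. It lies at chr11:100874339-100874490 on the plus strand in Stat5a and at chr11:100798234-100798385 on the minus strand in Stat5b (GRCm38, GENCODE annotation), and it reads the same in both.
Stat5a and Stat5b, shared coding exon: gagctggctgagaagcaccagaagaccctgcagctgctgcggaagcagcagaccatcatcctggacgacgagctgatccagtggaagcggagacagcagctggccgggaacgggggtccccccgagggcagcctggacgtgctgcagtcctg
Of all 50-base stretches of the longest coding transcript, 15.8% in Stat5a and 11.8% in Stat5b also occur in the other gene. For 75-base stretches the shares were 10.1% in Stat5a and 7.53% in Stat5b. The deposited counts of both genes are fractional, but so are those of Jak3, Cish and Socs2. Fractions alone therefore do not show how shared reads were assigned, which could affect both levels and is not given.

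STAT dimers bind the palindrome TTCNNNGAA, and STAT6 also binds TTCNNNNGAA, where N is any base. Each motif reads the same on both strands. In the 250 bases before the RefSeq start (GRCm38.p6), TTCNNNGAA occurred in 7.02% and TTCNNNNGAA in 5.85% of 32851 mouse promoters. Of the 10 genes, 9 had promoter entries, 11 in all, and Socs2 had none. Socs3 held the only match among these entries, 154 bases before its start at chr11:117969501-117969530 on the minus strand, shown with the motif in capitals because it is the only gene of the set whose groups did not overlap in all 6 libraries.
Socs3 promoter site: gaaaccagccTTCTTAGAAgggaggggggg
A match is a string of letters and not a measured binding site. The windows of Cish (chr9:107296409-107296658) and Socs3 (chr11:117969367-117969616) lie inside these genes as GENCODE annotates them. For both, the bases before the GENCODE start were not searched. The lack of a match in Cish therefore does not show that no motif lies near its start.

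Deposited counts summed to between 16135210 and 17600475 in the KO libraries and to between 14928623 and 27450400 in the WT libraries. Levels are given as CPM, counts scaled to library sizes that were adjusted by TMM, the method of edgeR. Cd48 itself had 4.52, 5.59 and 4.40 CPM in KO1, KO2 and KO3, against 58.2, 46.6 and 41.6 CPM in WT1, WT2 and WT3, and fell by 3.33 on the log2 scale (SE 0.20, edgeR adjusted p = 0.00285). Without WT1 it fell by 3.18 (SE 0.15). No source used here says which part of Cd48 the allele removes. WT1 stood apart. Across genes, its log2 CPM correlated with the other 5 libraries at 0.922 to 0.932, and those 5 with each other at 0.980 to 0.988. Set against the mean of WT2 and WT3, the median gene with a transcript of 500 to 1000 bases was 0.32 higher in WT1 on the log2 scale, and the median gene of 4000 to 6500 bases, the range that holds 7 of the 10 genes, was 0.35 lower. Each difference of the 10 genes is therefore given with all 6 libraries and without WT1. The summed CPM of 11 ILC2 markers was 12529 to 13305 in KO libraries, against 14765, 11286 and 10966 in WT1, WT2 and WT3. WT2 and WT3 thus lay below every KO library, and the overlap came from WT1. Il5 was the largest part of the sum. Among the 11, Il1rl1 and Il2ra were higher and Thy1 lower in every KO library than in any WT library. With all 6 libraries the groups overlapped in the other ILC2 markers, whereas they did not in 19.3% of all genes tested. Some markers of other cells also differed between genotypes. Of 8 T cell markers 4 were measured, and these summed to 13.7 to 15.8 CPM in KO libraries and 25.7 to 43.8 CPM in WT libraries. Almost all of that was Cd3g, while the T cell receptor constant gene Trac had at most 0.226 CPM in KO libraries and 0.349 CPM in WT libraries, and Cd3d at most 0.307 CPM in KO libraries and 0.574 CPM in WT libraries. The 7 epithelial markers, of which Krt8 was at 0 in all 3 KO libraries, summed to 10.0 to 23.8 CPM in KO libraries and 31.4 to 72.8 CPM in WT libraries. The 7 macrophage markers, with Mrc1 at 0 in every KO library, summed to 6.72 to 16.6 CPM in KO libraries and 10.5 to 33.3 CPM in WT libraries, which overlap. Pecam1, the only one measured of 5 markers listed for endothelium, went the other way. It had 40.1 to 41.9 CPM in KO libraries and 29.1 to 39.8 CPM in WT libraries, and alone does not show that endothelial cells were present. The summed B cell markers, 12.2 to 17.2 CPM in KO libraries and at least 14.1 CPM in WT libraries, overlapped. So did the summed granulocyte or mast cell and ILC3 markers, at no more than 0.676 and 1.04 CPM in KO libraries and 1.47 and 1.13 CPM in WT libraries. The part of these markers in the results was not tested. In bulk samples, fewer cells of a type and less RNA per cell cannot be told apart.

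None of the 10 genes differed between Cd48 KO and WT ILC2s past the threshold, an adjusted p under 0.05 in edgeR's quasi-likelihood test over all genes. With all 6 libraries 0 of 10 were called, against 0.0300% of the 13317 genes tested, and without WT1 0 of 10, against 1.82% of 13643 genes. No gene of the 10 had an unadjusted p under 0.05 either, against 6.89% of all genes with 6 libraries and 13.7% without WT1. Other tools called 0 of 10 in both fits as well. DESeq2 called 0.811% of all genes with 6 libraries and 2.94% without WT1, limma-voom 0.0300% and 1.42%, and limma-voom with quality weights per sample 0.713% and 1.60%. Adjusted p-values by edgeR were 0.690 to 0.893 with all 6 libraries and 0.567 to 0.975 without WT1. All 10 genes passed the filter on low counts.

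What the data can bound is the size of a change. Without WT1, the 95% intervals of the fold, KO over WT, lay between 0.893 and 1.23 for 9 of the 10 genes, that is, all except Jak2. With all 6 libraries the intervals of those 9 genes lay between 0.733 and 1.94. These are intervals for single genes, not adjusted for the number of genes, and all 10 included 1 in both fits. The median size of the log2 difference over the 10 genes was 0.06 without WT1, against 0.14 over all genes tested. With all 6 libraries it was 0.18, against 0.23 over all genes. All genes tested include weakly expressed ones and were not matched to the 10 for level. The gap therefore does not show that these 10 are steadier than other genes of like level.

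**Figure D1:**
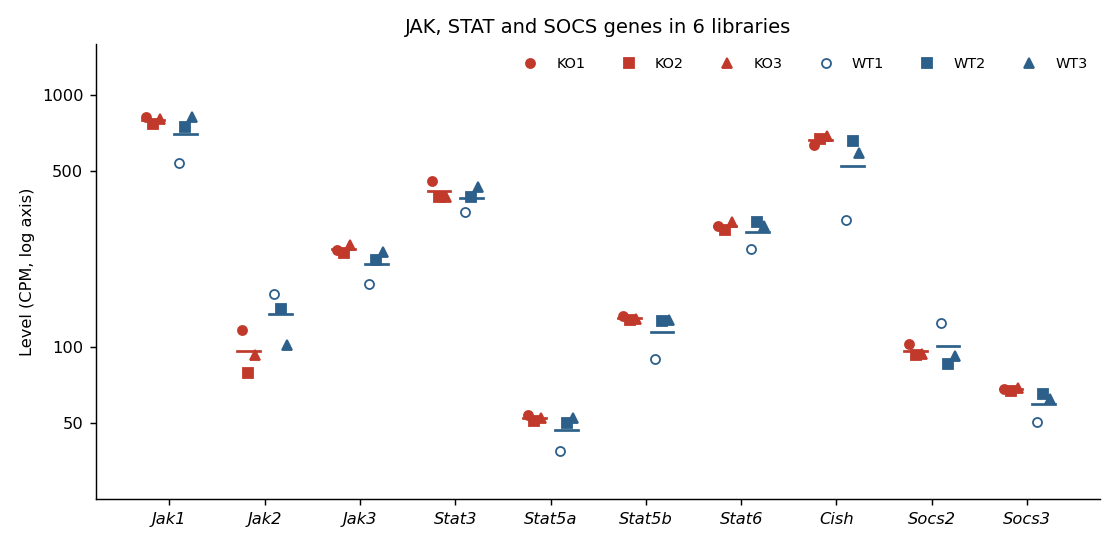
Level in CPM (log axis) of each gene in each library, KO left of WT, with WT1 as an unfilled marker and a line at each group's mean. WT1 lies below the other WT libraries in 8 genes and above them in Jak2 and Socs2, while the KO libraries lie close to WT2 and WT3 except in Jak2.

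Among the kinases, Jak1 serves nearly every cytokine receptor of these cells (chr4:101152367-101265282). It had 821, 770 and 803 CPM in KO1, KO2 and KO3, against 539, 751 and 824 CPM in WT1, WT2 and WT3. The KO values lie inside the range of WT, and WT1 is the lowest library. On the opposite strand Jak1 is overlapped by Gm24468 and, over 4 bases, by Raver2. Its log2 fold change was 0.18 (SE 0.17, edgeR adjusted p = 0.715), and 0.02 without WT1 (SE 0.06, edgeR adjusted p = 0.925). The 95% interval of the fold without WT1 ran from 0.932 to 1.10.

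Jak3 pairs only with the common gamma chain of the IL-2, IL-4, IL-7 and IL-9 receptors (chr8:71676296-71690575). It had 244, 237 and 254 CPM in KO1, KO2 and KO3, against 178, 222 and 239 CPM in WT1, WT2 and WT3. KO2 lay just below WT3, so the groups overlapped. Jak3 had a log2 fold change of 0.20 (SE 0.14, edgeR adjusted p = 0.693), and 0.09 without WT1 (SE 0.06, edgeR adjusted p = 0.600). Jak3 overlaps Insl3 on the same strand, which had a mean of 3.86 counts per library.

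Jak2 serves the beta common chain of the IL-5 and GM-CSF receptors and, with Tyk2, several others (chr19:29251828-29313080). It was the only kinase of the 3 with a negative log2 fold change, and its interval was the widest of the 10 genes without WT1. Jak2 had 117, 79.2 and 93.6 CPM in KO1, KO2 and KO3, against 163, 142 and 102 CPM in WT1, WT2 and WT3. KO1 lay above WT3, so the groups overlapped. The means were 96.5 ± 18.9 CPM in KO and 136 ± 30.9 CPM in WT (SD, n = 3 each). The log2 fold change was -0.49 (SE 0.22, 95% interval -1.01 to 0.03, edgeR adjusted p = 0.690), and -0.33 without WT1 (SE 0.21, 95% interval -0.86 to 0.19, edgeR adjusted p = 0.582). In fold, the interval ran from 0.495 to 1.02 with all 6 libraries and from 0.549 to 1.14 without WT1. The sign was negative in all 17 alternatives to the fit with 6 libraries, at -0.68 to -0.33. These include fits with a library left out, and the -0.33 is the fit without WT1 itself. The sign was also negative in all 16 alternatives to the fit without WT1, at -0.56 to -0.09, and no setting called Jak2. All settings reuse the same few samples and are not separate evidence.

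Stat6, the mediator of IL-4 and IL-13, was the most abundant of the 4 STATs per length (chr10:127642986-127660957). It had 302, 292 and 314 CPM in KO1, KO2 and KO3, against 246, 314 and 303 CPM in WT1, WT2 and WT3. Without WT1 the values of both groups interleave. Stat6 overlaps Nab2 on the opposite strand over 40 bases. Its log2 fold change was 0.07 (SE 0.13, edgeR adjusted p = 0.828), and -0.02 without WT1 (SE 0.06, edgeR adjusted p = 0.912).

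Stat3, which serves IL-6 type receptors, IL-10 and IL-21 (chr11:100885098-100939540), had 457, 396 and 396 CPM in KO1, KO2 and KO3, against 344, 395 and 433 CPM in WT1, WT2 and WT3. KO1 was the highest library and WT1 the lowest, and the rest overlapped. Stat3 had a log2 fold change of 0.09 (SE 0.13, edgeR adjusted p = 0.787), and 0.01 without WT1 (SE 0.07, edgeR adjusted p = 0.975). The sign with all 6 libraries turned under a trend on transcript length in the offsets, to -0.12. The last 72 bases of Stat3 and Stat5a overlap on opposite strands, and no source used here says whether reads were counted by strand.

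The STAT5 genes, which transmit IL-2, IL-7 and TSLP, varied little among the 5 libraries other than WT1. Stat5b (chr11:100780731-100850724) had 133, 128 and 129 CPM in KO1, KO2 and KO3, against 89.5, 127 and 128 CPM in WT1, WT2 and WT3. Stat5a (chr11:100859351-100885169) had 53.7, 50.8 and 52.3 CPM in KO1, KO2 and KO3, against 38.8, 49.9 and 52.4 CPM in WT1, WT2 and WT3. In both genes WT1 alone was low. The log2 fold change without WT1 was 0.03 for Stat5b (SE 0.07, edgeR adjusted p = 0.901) and 0.03 for Stat5a (SE 0.09, edgeR adjusted p = 0.924). With all 6 libraries it was 0.18 for Stat5b (SE 0.16, edgeR adjusted p = 0.714) and 0.15 for Stat5a (SE 0.15, edgeR adjusted p = 0.724). Both levels may depend on how reads from the shared coding run were assigned.

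**Figure D2:**
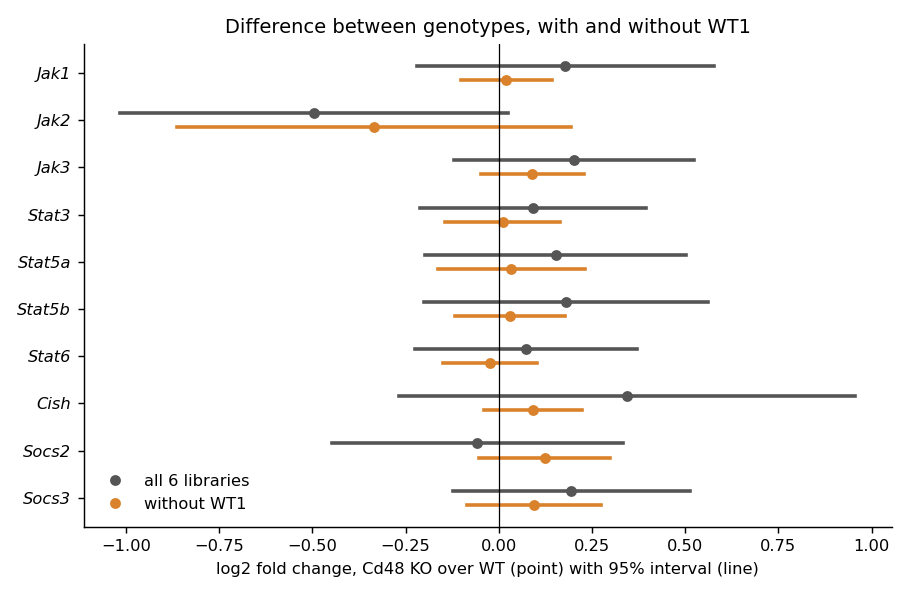
Log2 fold change of each gene, Cd48 KO over WT, with its 95% interval (line), from all 6 libraries and from the 5 without WT1. All 20 intervals include 0, and without WT1 that of Jak2 is the widest, running from -0.86 to 0.19.

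The feedback genes were measured next, since their transcripts follow STAT activity. Cish, whose protein binds STAT5 docking sites on receptors (chr9:107296026-107302784), had 635, 673 and 690 CPM in KO1, KO2 and KO3, against 321, 660 and 593 CPM in WT1, WT2 and WT3. KO1 lies below WT2, so the groups overlap, and WT1 is far below all other libraries. Cish overlaps Gm17040 on the opposite strand, which had a mean of 36.7 counts per library. The log2 fold change was 0.34 (SE 0.26, 95% interval -0.27 to 0.96, edgeR adjusted p = 0.700), and 0.09 without WT1 (SE 0.06, 95% interval -0.04 to 0.22, edgeR adjusted p = 0.569). WT1 alone moved this value by more than for any other of the 10 genes.

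Socs2, another STAT5 target and a brake on growth hormone signalling (chr10:95385362-95417180), had 103, 93.2 and 94.3 CPM in KO1, KO2 and KO3, against 124, 85.6 and 92.1 CPM in WT1, WT2 and WT3. All KO libraries lay above WT2 and WT3, and WT1 lay above all of them. The log2 fold change was -0.06 (SE 0.16, edgeR adjusted p = 0.893), and it turned to 0.12 without WT1 (SE 0.08, 95% interval -0.05 to 0.30, edgeR adjusted p = 0.567).

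Socs3, a STAT3 target that binds the gp130 chain of IL-6 type receptors (chr11:117966079-117970047), had 68.2, 67.3 and 68.9 CPM in KO1, KO2 and KO3, against 50.7, 65.5 and 62.5 CPM in WT1, WT2 and WT3. The 3 KO libraries lay above all 3 WT libraries. Socs3 had a log2 fold change of 0.19 (SE 0.13, edgeR adjusted p = 0.693), and 0.09 without WT1 (SE 0.08, 95% interval -0.08 to 0.27, edgeR adjusted p = 0.691). In all, the groups did not overlap in 1 of the 10 genes with all 6 libraries (Socs3), against 19.3% of all genes tested, and in 2 of 10 without WT1 (Socs2 and Socs3), against 30.0% of all genes.

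The sign of the log2 fold change was positive in 8 of 10 genes in each fit, against 49.5% of all genes with 6 libraries and 50.2% without WT1. The negative ones were Jak2 and Socs2 with all 6 libraries, and Jak2 and Stat6 without WT1. The median over the 10 genes was 0.17 with all 6 libraries, against -0.0039 over all genes, and 0.03 without WT1, against 0.00048 over all genes. The median thus moved from the KO side to near 0 when 1 library was left out, and the per-gene gaps of that library show where.

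Against the mean of WT2 and WT3 on the log2 scale, WT1 was lower in 8 of the 10 genes. Cish had the widest gap, at -0.96, followed by Jak1 at -0.55 and Stat5b at -0.51. Stat5a, Jak3, Socs3, Stat6 and Stat3 had gaps of -0.40, -0.37, -0.33, -0.33 and -0.26. Socs2 and Jak2 went the other way, by 0.49 and 0.44, although their longest transcripts, of 4242 and 5030 bases, are in the length class whose median gene was 0.35 lower in WT1. The cause of these gaps was not tested.

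Levels were next put on a scale that allows genes to be compared, as counts per base of the longest annotated transcript, scaled to the same sum in each library. The order by the mean over the 6 libraries was Jak1 (366), Cish (304), Stat6 (186), Stat3 (159), Jak3 (135), Socs3 (59.7), Stat5b (56.2), Socs2 (55.0), Jak2 (54.4) and Stat5a (30.0). Among 17022 genes with a length, the levels lay between the percentile 67.0 (Stat5a in its lowest library) and 97.7 (Jak1 in its highest). Neighbours in this order separated over all 6 libraries only between Jak3 and Socs3 and between Jak2 and Stat5a. In the 5 libraries without WT1 they also separated from Jak1 down to Jak3, whereas Socs3, Stat5b, Socs2 and Jak2 overlapped each with the next. With the merged length of all exons instead, Jak1, Cish, Stat6, Stat5b and Stat5a kept their places, Jak3 and Stat3 changed places, Jak2 moved up to place 6, and Socs3 and Socs2 moved down to places 8 and 9. By the mean, Cish, an inhibitor, was second to Jak1 and above the 4 STAT genes on either choice of length. Both choices take in annotated transcripts of any type, and for Cish they gave 4697 and 6419 bases. A shorter length would raise the level of Cish and was not tried, so its place against Jak1 is not settled.

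Shares within each family do not depend on library size. Of the summed level per length of the 4 JAK genes, Jak1 made up 58.8% ± 0.66 in KO and 56.4% ± 3.21 in WT, Jak3 21.9% ± 0.87 in KO and 20.8% ± 0.54 in WT, and Tyk2, the remaining kinase, 12.4% ± 0.58 in KO and 11.7% ± 1.65 in WT (SD, n = 3 each). Jak2 made up 8.05%, 5.96% and 6.70% in KO1, KO2 and KO3, against 15.7%, 10.4% and 7.22% in WT1, WT2 and WT3, and KO1 lay above WT3. Of 6 STAT genes, the 4 of the set with Stat2 and Stat4, Stat6 made up 37.1% in KO and 37.3% in WT and Stat3 31.9% in KO and 31.7% in WT. Stat5b and Stat5a made up 11.6% and 6.12% in KO, against 10.7% and 5.81% in WT.

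The SOCS family was mostly Cish and Socs1, the main inhibitor of interferon signalling, which is given here only because the shares turn on it. Cish made up 44.5%, 48.9% and 50.7% in KO1, KO2 and KO3, against 26.8%, 45.9% and 45.4% in WT1, WT2 and WT3. Socs1 made up 35.4%, 31.2% and 28.8% in KO1, KO2 and KO3, against 49.8%, 36.1% and 34.7% in WT1, WT2 and WT3. By the longest annotated transcript, Socs1 was therefore the first SOCS transcript in WT1 and Cish in the other 5 libraries. A shorter length for Cish would raise its share in every library and was not tried. Socs3 made up 9.04% in KO and 8.32% in WT, and Socs2 7.72% in KO and 8.64% in WT.

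**Figure D3:**
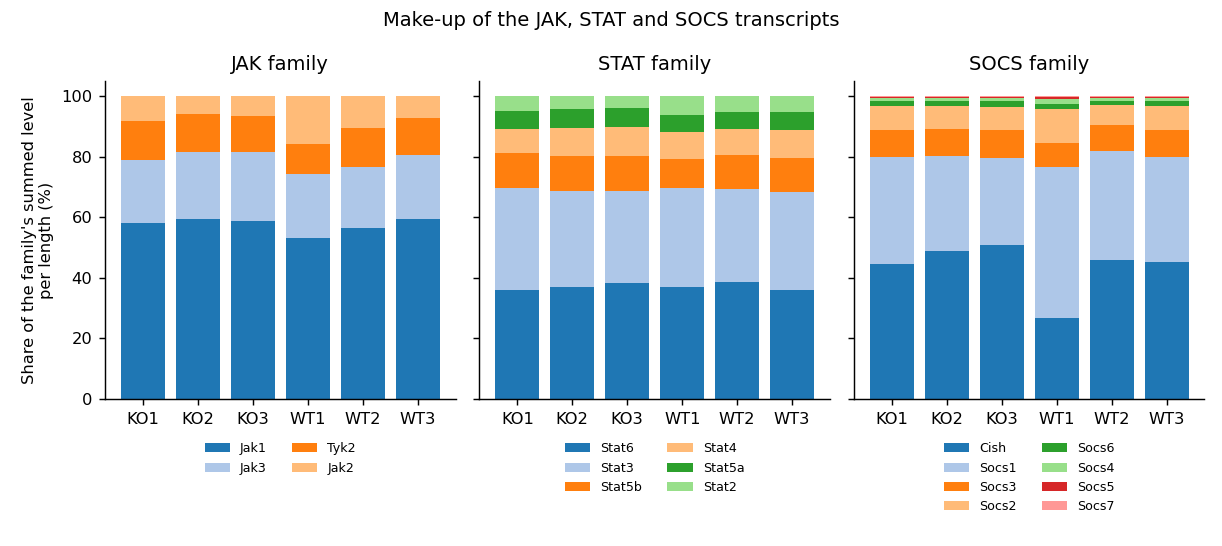
Share (%) of each gene in the summed level per length of 4 JAK, 6 STAT and 8 SOCS family genes, one stacked bar per library, KO left of WT. WT1 differs most in the SOCS panel, with Cish at 26.8% against 44.5% to 50.7% in the other libraries.

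Ratios between genes of like role, taken within each library from the deposited counts and not per length, asked whether partners kept their proportion. The log2 ratio of Stat5b to Stat5a was 1.31, 1.33 and 1.31 in KO1, KO2 and KO3, against 1.20, 1.35 and 1.29 in WT1, WT2 and WT3, a difference of 0.03 (two-sided exact permutation p = 0.6, n = 3 each). The log2 ratio of Jak3 to Jak1 was -1.75, -1.70 and -1.66 in KO1, KO2 and KO3, against -1.60, -1.76 and -1.79 in WT1, WT2 and WT3, a difference of 0.01 (two-sided exact permutation p = 0.9, n = 3 each). Without WT1 that difference was 0.07, with all KO libraries above WT2 and WT3 (two-sided exact permutation p = 0.2).

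The log2 ratio of Cish to Socs2 was 2.63, 2.85 and 2.87 in KO1, KO2 and KO3, against 1.37, 2.95 and 2.69 in WT1, WT2 and WT3. The difference was 0.45 (two-sided exact permutation p = 0.7, n = 3 each) and turned to -0.03 without WT1 (two-sided exact permutation p = 0.8). These 3 ratios cannot reach a p below 0.1 with 3 against 3 or 3 against 2 libraries, so no adjustment could bring one past 0.05. In WT1 the 2 STAT5 targets of the set parted, with Cish at its lowest and Socs2 at its highest of all libraries.

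**Figure D4:**
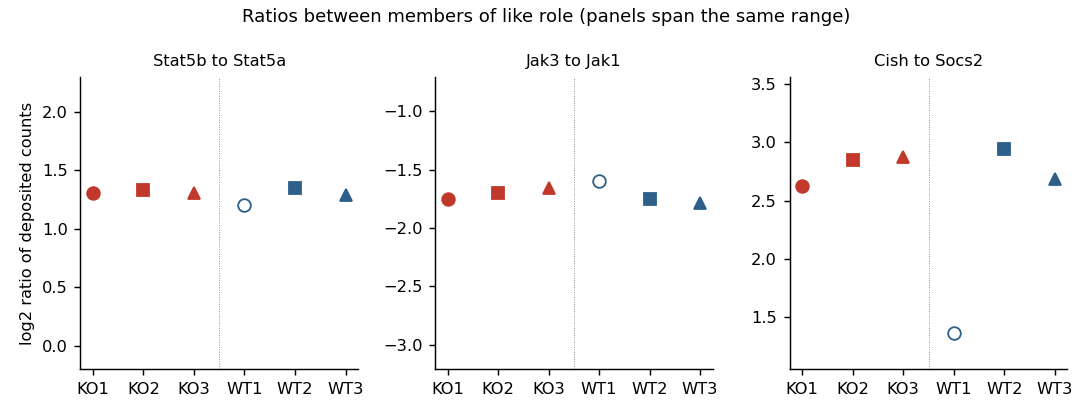
Log2 ratio of deposited counts in each library for Stat5b to Stat5a, Jak3 to Jak1 and Cish to Socs2, KO left of WT, with panels spanning the same range. The Cish to Socs2 ratio of WT1, at 1.37, is the point farthest from its group.

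The rest of the pathway gave the setting. With all 6 libraries edgeR called no gene of 8 further lists, from receptors to target genes. An unadjusted edgeR p under 0.05 was held by 6.89% of all genes. In the lists it was held by 2 of 20 receptor chains, 4 of 8 ligands and 4 of 15 STAT5 targets. Gzmb is among these 4 targets, although it passed the filter on low counts only through the KO libraries. It was also held by 1 of 8 STAT6 targets, 2 of 12 STAT3 targets and 1 of 4 other JAK and STAT genes. Of 11 further inhibitors 1 had it, and of 5 other SOCS genes none. DESeq2 called Osm, limma-voom with quality weights called Il2ra and Osm, and limma-voom called none. Without WT1 edgeR called 5 genes of these lists, all higher in KO. Of all genes tested, 1.17% were called higher and 0.652% lower. By list the calls were 1 of 20 receptor chains, 2 of 8 ligands and 3 of 15 STAT5 targets. The only other call was 1 of 12 STAT3 targets. Il2ra and Osm count in more than 1 of these lists. Gzmb, also counted, passed the filter on low counts only through the KO libraries. These calls come from 2 WT libraries, and each of the 5 was lost when some further library was left out. Of all genes, 13.7% had an unadjusted edgeR p under 0.05 without WT1. Such genes were 8 of 20 receptor chains, 6 of 8 ligands and 5 of 15 STAT5 targets. They were also 4 of 10 STAT6 targets and 4 of 12 STAT3 targets. Genes on more than 1 list count in each, and Gzmb is among the 5 STAT5 targets. The lists were chosen with earlier results of these data known.

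Of the receptor chains that use JAKs, 20 were tested without WT1 and only Il2ra, the high-affinity IL-2 receptor chain and a STAT5 target, was called. Il2ra had 2025, 2066 and 2091 CPM in KO1, KO2 and KO3, against 1625, 1564 and 1776 CPM in WT1, WT2 and WT3, with no overlap between the groups. Its log2 fold change was 0.31 without WT1 (SE 0.06, edgeR adjusted p = 0.0200) and 0.32 with all 6 libraries (SE 0.10, edgeR adjusted p = 0.690). With WT1 out, leaving out KO2, KO3 or WT2 as well gave adjusted p-values of 0.103, 0.111 and 0.168. The other most abundant chains were Il2rg, the common gamma chain, at a log2 fold change of -0.06 without WT1 and -0.40 with all 6 libraries, and Il4ra, the IL-4 and IL-13 receptor chain, at 0.13 without WT1 and 0.36 with all 6 libraries, neither called. The median of the 20 was -0.05 without WT1, against 0.00048 over all genes, and -0.0079 with all 6 libraries, against -0.0039 over all genes.

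Of 8 ligands tested without WT1, Il5 and Osm were called higher. Osm, or oncostatin M, an IL-6 type cytokine and STAT5 target, had 125, 142 and 128 CPM in KO1, KO2 and KO3, against 84.9, 99.3 and 89.1 CPM in WT1, WT2 and WT3. Its log2 fold change was 0.49 without WT1 (SE 0.09, edgeR adjusted p = 0.0117) and 0.53 with all 6 libraries (edgeR adjusted p = 0.623), and the groups did not overlap in either. With WT1 out, leaving out KO2, KO3 or WT3 as well gave adjusted p-values of 0.0728, 0.0667 and 0.101. Il5, the eosinophil growth factor, had 6841, 7642 and 7027 CPM in KO1, KO2 and KO3, against 10007, 6179 and 5597 CPM in WT1, WT2 and WT3. WT1 was the highest library, so the log2 fold change was 0.29 without it (SE 0.06, edgeR adjusted p = 0.0332) and -0.02 with it (edgeR adjusted p = 0.977). Leaving out KO2, KO3 or WT3 besides WT1 ended the call for Il5, at adjusted p-values of 0.128, 0.129 and 0.195. Il5 overlaps the transcript Gm12214 on the opposite strand. Not called were Csf2, which encodes GM-CSF, at -0.22 without WT1 and -0.28 with all 6 libraries, and Il13 at 0.40 without WT1 and 0.19 with all 6 libraries. DESeq2 and limma-voom with quality weights called Il13 without WT1. The median of the 8 was 0.33 without WT1 and 0.18 with all 6 libraries.

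Lists of known STAT targets were read next. Of 15 STAT5 targets other than the SOCS genes above, those called higher without WT1 were Il2ra and Osm, both counted above as well, and Gzmb. Gzmb, the cytotoxic protease granzyme B, passed the filter on low counts only through the KO libraries, so its call adds nothing to the count of the list. It rested on few reads, with 53, 29 and 17 counts in KO1, KO2 and KO3, against 9, 3 and 0 counts in WT1, WT2 and WT3. With reads pooled over libraries, the ratio of KO to WT2 and WT3, scaled by library size, was 28.1 (95% exact counting interval 9.33 to 138). This interval leaves out the spread among libraries and takes each read for a separate molecule. WT1 held 9 of the 12 WT counts, so the ratio leaves out most WT reads. With WT1 the ratio would be lower. The fitted log2 fold change was 4.62 without WT1 (SE 0.97, edgeR adjusted p = 0.0401). With all 6 libraries it was 2.99 (SE 1.06, edgeR adjusted p = 0.690). The call was lost without KO1, KO2, KO3 or WT3 (adjusted p = 0.0553, 0.147, 0.0667 and 0.165), in limma-voom with and without quality weights, without robust estimation and with a replicate block (adjusted p = 0.0579). The most abundant other targets, the transcription regulator Id2 and the cyclin Ccnd3, had log2 fold changes of 0.16 and -0.07 without WT1 and 0.06 and -0.06 with all 6 libraries, and were not called. The median of the 15 was 0.11 without WT1 and 0.06 with all 6 libraries.

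Without WT1, none of 10 STAT6 targets was called by edgeR or limma-voom, with 4 at an unadjusted p under 0.05 as counted above, and Il13 was called by DESeq2 and by limma-voom with quality weights. Gata3, the ILC2 master regulator, had 1088, 934 and 780 CPM in KO1, KO2 and KO3, against 1417, 1072 and 1125 CPM in WT1, WT2 and WT3, with KO1 above WT2, and a log2 fold change of -0.23 without WT1 (SE 0.14, edgeR adjusted p = 0.573) and -0.37 with all 6 libraries (SE 0.17, edgeR adjusted p = 0.690). Of 12 STAT3 targets, Hif1a, the oxygen-sensing factor that drives glycolytic genes, was called higher. It had 1505, 1433 and 1480 CPM in KO1, KO2 and KO3, against 799, 1131 and 1239 CPM in WT1, WT2 and WT3, and a log2 fold change of 0.32 without WT1 (SE 0.05, edgeR adjusted p = 0.0108). Leaving out KO3 or WT2 besides WT1 gave adjusted p-values of 0.0667 and 0.107. With all 6 libraries the log2 fold change of Hif1a was 0.48 (SE 0.17, edgeR adjusted p = 0.690). Hif1a overlaps Gm15283 on the opposite strand. The other abundant STAT3 targets, Junb and Bcl3, had log2 fold changes of 0.09 and -0.18 without WT1 and -0.01 and -0.20 with all 6 libraries, and were not called. The medians were -0.06 for STAT6 and 0.10 for STAT3 targets without WT1, and -0.06 for 8 STAT6 and 0.09 for 12 STAT3 targets with all 6 libraries.

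Among the relatives of the 10 genes, edgeR called none. In Tyk2, Stat2, Stat4 and Irf9, a factor of the interferon response, all 4 log2 fold changes were negative without WT1 with a median of -0.15. With all 6 libraries the signs of Tyk2 and Stat4 turned, at 0.19 and 0.08, against -0.02 and -0.01 without WT1, and the median was -0.08. Without WT1, 2 of the 4 had an unadjusted p under 0.05 and DESeq2 called Irf9, chosen for mention after its value was seen, at -0.46 (-0.37 with all 6 libraries). Limma-voom in either form called 0 of these 4. Stat2 had 46.5, 39.8 and 38.2 CPM in KO1, KO2 and KO3, against 47.3, 48.0 and 52.5 CPM in WT1, WT2 and WT3, with no overlap between the groups and a log2 fold change of -0.27 without WT1 (SE 0.11, edgeR adjusted p = 0.275) and -0.25 with all 6 libraries (edgeR adjusted p = 0.690). Socs1 had 313, 266 and 243 CPM in KO1, KO2 and KO3, against 368, 321 and 281 CPM in WT1, WT2 and WT3, with KO1 above WT3 and a log2 fold change of -0.13 without WT1 (SE 0.10, edgeR adjusted p = 0.655) and -0.24 with all 6 libraries (edgeR adjusted p = 0.690). None of the 5 other SOCS genes had an unadjusted p under 0.05, and DESeq2 and both forms of limma-voom called 0 of them. Of 11 further inhibitors, 2 had an unadjusted p under 0.05 without WT1, and DESeq2 called Usp18, a brake on the interferon receptor also chosen after its value was seen, at -0.70 (-0.95 with all 6 libraries). Limma-voom in either form called none of these inhibitors. The phosphatases Ptprc, Ptpn1 and Ptpn2 had log2 fold changes of 0.03, -0.08 and 0.26 without WT1 and 0.28, 0.02 and 0.20 with all 6 libraries, so the sign of Ptpn1 turned. Socs6 and Socs4 had log2 fold changes of 0.18 and 0.11 without WT1 and 0.24 and -0.15 with all 6 libraries, so the sign of Socs4 turned. Of the genes outside the set, Gata3, Csf2, Il4ra, Ccnd3, Junb, Bcl3, Tyk2, Stat4, Socs6 and Usp18 are also overlapped by opposite-strand genes.

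**Figure D5:**
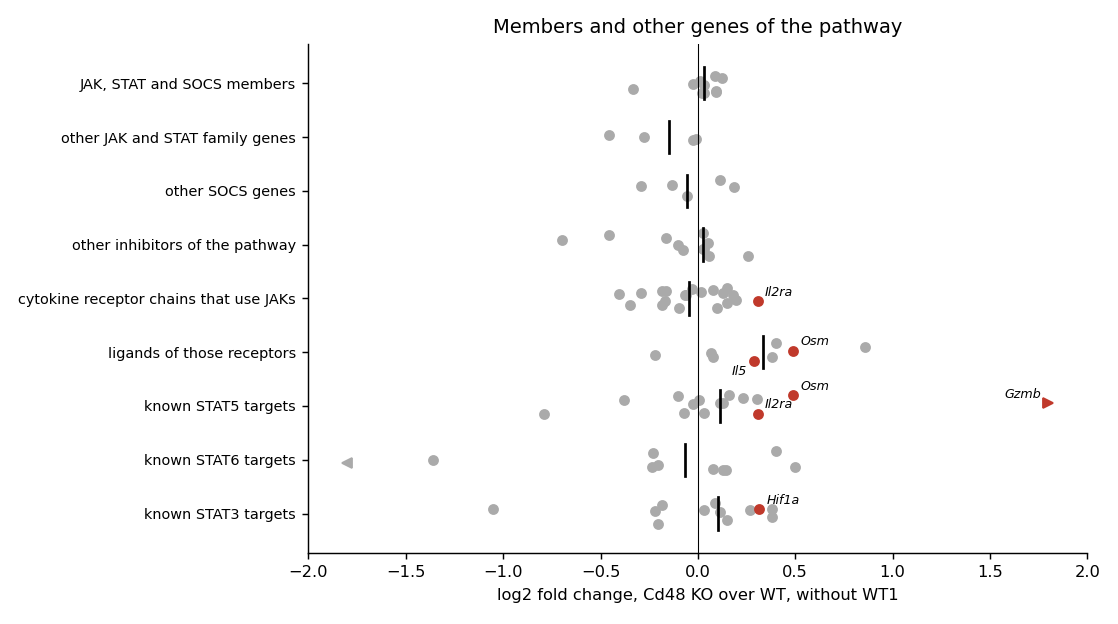
Log2 fold change, Cd48 KO over WT, without WT1, for each tested gene of the 9 lists, with the list's median as a black bar. Red points were called higher in KO by edgeR, grey points were not called, and arrowheads at the edges mark values beyond the plotted range. The JAK, STAT and SOCS genes lie between -0.02 and 0.12 except Jak2 at -0.33.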

How the data were processed

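RNA of sorted, IL-33-treated mouse lung ILC2s was sequenced in 3 Cd48 KO and 3 WT samples, grouped by title and genotype label. Per the labels' protocols, cDNA was made from 10 pg of RNA with a SMARTer Ultra Low Input kit. Per the submitters' processing notes, the build was mm10 and the tools were Partek 10.0, STAR 2.7.8 and DESeq2. Counter, annotation and strand setting: not given in the sources used here. Duplicates are named in the design text, while 3 samples per genotype were analysed.

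The authors deposited estimated counts per gene, not normalized, as judged from the values: of the values above 0, 60.2% lie within 0.001 of a whole number, and the lowest gene total is 10. Library totals ran from 14928623 to 27450400. No pair of replicates agreed within sampling noise (chi-square per gene 5.22 to 135), and each sample counted once. This does not show that the samples came from different animals. Of the symbols, 17022 (97.6%) matched GENCODE M21 (GRCm38), the source of 1-based positions and lengths, and 416 did not.

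Counts were rounded and tested over the whole table by edgeR 4.0.16 under R 4.3.3 (robust quasi-likelihood test, TMM, filterByExpr with minimum count 10 and minimum total 15, Benjamini-Hochberg, calls at an adjusted p under 0.05), with all 6 libraries and without WT1. The standard error (SE) is the absolute log2 fold change divided by the square root of F. Alternatives used limma 3.58.1 and DESeq2 1.42.0. The tests were run on simulated counts first. The members, gene lists, markers and tests were chosen with earlier results of these data known. Named are the 10 genes and, of each further list, the called genes and the 3 with the highest mean CPM. Counting intervals cover the counting error of reads only. Reads copied by PCR and lacking molecular identifiers are not separate molecules, so the intervals do not cover the counting error of molecules. Promoters come from RefSeq (GRCm38.p6). A gene and a gene list are not reported here.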

Additional observations from a re-analysis of the deposited data

How the results depend on the processing

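The 10 genes gave 0 calls in each of 17 alternatives with all 6 libraries and 16 without WT1: other size factors, other filters, other tools, no robust estimation, a threshold of 0.1, a length trend in the offsets, a replicate block and each library left out. The log2 fold changes of Jak1, Jak3, Stat5a, Stat5b, Cish and Socs3 (positive) and Jak2 (negative) kept their sign in all 17 with 6 libraries. Those of Socs2, Stat6 and Stat3 did not in 2, 2 and 1 settings. The 17 include the fits with a library left out, and leaving out WT1 gives the main fit without WT1. Without WT1, Jak1 turned in 2 settings, Stat3 in 6 and Stat5a in 1 of 16, at sizes up to 0.06. Over all genes, the count of 4 with all 6 libraries became 108 with DESeq2 and 95 with limma-voom with sample quality weights, which gave WT1 a weight of 0.0919. It was 0 to 248 with 1 library left out, with 0 without KO1 or KO3 and 248 without WT1. The count of 248 without WT1 became 401 with DESeq2, 157 without robust estimation, 420 at an adjusted p under 0.1, and 65 to 517 with a further library left out, namely 517 without KO1, 73 without KO2, 65 without KO3, 89 without WT2 and 141 without WT3. With the replicate number as a block the counts were 0 with all 6 libraries and 570 without WT1, and none of the 10 genes was called. Same-numbered samples are not labelled as pairs, and their deviations from the group means did not go together (correlations -0.046, -0.036 and -0.009). These correlations do not settle whether samples were paired, since WT1 stood apart and weighs on every WT deviation. The Stat5b to Stat5a, Jak3 to Jak1 and Cish to Socs2 ratio differences ranged over -0.004 to 0.07, -0.03 to 0.07 and -0.03 to 0.76 with each library left out, a check added after the data had been seen. The causes of these shifts were not tested. Where 1 WT library remained, its spread was taken from the KO libraries. The fewest counts of any of the 10 genes in a library were 556, for Stat5a in WT1.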
